A study of Mus musculus with 2 samples.

Results

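Cluster 9 of the deposited cluster means holds the Schwann-like cells of the mouse submandibular gland stroma. Its members were taken by cluster number alone, as the authors' tables name it, and they numbered 288 of 15605 cells, of which 271 came from the ligated and 17 from the mock library. Schwann cells are the glia of peripheral nerves, and each either wraps a single large axon in a myelin sheath built of Mbp, Pmp22 and other proteins and of lipid, or holds several thin axons in a bundle without myelin. Most nerve fibres inside salivary glands are thin autonomic axons, and the neuregulin receptor Erbb3 and the transcription factor Sox10 are needed for the whole lineage. After nerve injury Schwann cells lower their myelin genes and raise Jun, Sox2, Gdnf, Artn and other genes of a repair programme.

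The series compared glands after duct ligation with glands after a mock operation, using droplet single-cell RNA libraries. Both groups were female C57BL6/J mice aged 14 weeks. In the ligated group a metal clip on the main ducts closed both the submandibular and the sublingual gland for 14 days. In the mock group the ducts were located and not clipped, with the same 14 days of healing. Each library pooled 2 glands, and the dissociated cells had been depleted of EpCAM-bearing epithelial cells, Ter119-bearing red cells and dead cells, so the library is the unit of replication and each condition has 1. No p-value is therefore given, every difference between conditions also separates 2 libraries, and surgery and library cannot be told apart.

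Each value is a gene's UMIs (unique transcript molecules) per 10000 UMIs of a cell, averaged across a cluster's cells. Differences are given as log2((ligated + 0.1)/(mock + 0.1)), which understates changes of low genes. The size rule asked for a value of 0.5 or more in 1 of the libraries and a difference of 1 or more in either direction. A gene was past the identity rule where its cluster 9 mean was at least 0.5 and stood at least 1 log2 unit above the highest of the other 11 cluster means, on the same scale. Because the cells were clustered on these genes, identity is a description and carries no test.

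The 25 genes with the largest identity difference included 5 of the 12 Schwann markers. Among the first were Kcna1 and Kcna2, which encode axonal-type potassium channels, the collagen Col20a1 and the prion protein gene Prnp. Of the 25, 16 genes had promoters in the RefSeq table of GRCm38.p6, 19 sequences of 300 bases in all (250 before and 50 after the start). These were searched on both strands for ACAAAG and ACAATG, letters of a SOX-type motif, since Sox10 marks the cluster. A match was found in 2 of the 19 (10.5%), in 84 of 294 promoters of genes past the identity rule (28.6%), in 19.5% of promoters of all genes at 0.5 or more in cluster 9, and in 28.6% of all 32851 promoters. The share among identity genes thus equalled that of all promoters. It stood above the 19.5% of genes at 0.5 or more, the set from which identity genes are drawn, and the difference was not tested. The promoters of Col20a1 (chr2:180986285-180986584, plus strand, match 213 bases before the start) and Chl1 (chr6:103510626-103510925, plus strand, match 145 bases before the start) are shown as the only matches among the leading genes, with that of the marker S100b (chr10:76253586-76253885, plus strand) as one without a match; capitals mark the match, read 5′ to 3′.
Col20a1: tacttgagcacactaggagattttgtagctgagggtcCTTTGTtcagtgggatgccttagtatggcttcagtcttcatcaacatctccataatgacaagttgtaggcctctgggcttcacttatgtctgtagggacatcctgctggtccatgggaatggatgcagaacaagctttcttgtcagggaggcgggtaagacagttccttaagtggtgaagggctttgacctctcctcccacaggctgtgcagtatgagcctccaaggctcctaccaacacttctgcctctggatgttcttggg
Chl1: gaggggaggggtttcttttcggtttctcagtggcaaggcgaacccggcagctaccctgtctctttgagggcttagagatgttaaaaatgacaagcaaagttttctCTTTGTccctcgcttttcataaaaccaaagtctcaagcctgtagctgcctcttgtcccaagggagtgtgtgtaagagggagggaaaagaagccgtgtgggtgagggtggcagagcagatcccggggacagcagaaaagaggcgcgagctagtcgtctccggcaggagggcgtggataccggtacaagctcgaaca
S100b: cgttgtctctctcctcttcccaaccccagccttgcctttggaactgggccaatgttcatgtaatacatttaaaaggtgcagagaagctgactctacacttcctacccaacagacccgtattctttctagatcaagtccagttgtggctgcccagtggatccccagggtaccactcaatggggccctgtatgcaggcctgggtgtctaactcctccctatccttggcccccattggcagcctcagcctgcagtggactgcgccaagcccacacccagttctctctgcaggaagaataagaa

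Cluster 9 made up 2.38% of ligated cells (271 of 11406, exact Clopper-Pearson 95% interval 2.10 to 2.67%) and 0.405% of mock cells (17 of 4199, interval 0.236 to 0.647%). The intervals cover counting error only, do not overlap, and follow the bead depletions, which can set such shares. Such non-overlap was not particular to cluster 9, since it also held in clusters 0, 1, 2, 3, 5, 7, 8 and 10. Cluster 8, for example, made up 2.31% of ligated cells (2.05 to 2.61%) and 0.595% of mock cells (0.386 to 0.878%). The 17 mock cells held 93377 UMIs, with a median of 4641 and a range of 2356 to 23497. Totals could be recovered for 213 of the 271 ligated cells, with a median of 3827 and a range of 581 to 18076. Genes seen numbered 9474 in the mock and 14545 in the ligated cells. A gene with no mock UMI has a floor of 0.321 per 10000 (3 UMIs of 93377), and a fold against such a gene is a lower bound for that floor only. The floor includes the deepest mock cell, with 23497 UMIs and many of other cell types (below), and would be higher without it. Cell barcodes were not analysed here.

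All 12 Schwann markers were past the identity rule, against a background of 7.82% (286 of 3656 genes). The markers, Sox10 and S100b among them, were used to name the cluster, so this count describes it and does not support the name. Kcna1, a potassium channel, read 29.5 in ligated and 26.4 in mock cells, against a joint mean of 0.189 in the next highest cluster. Scn7a, a sodium channel of unmyelinated fibres' glia, read 35.3 and 31.2. Both stood at nearly the same level in the 2 libraries and were the highest Schwann markers in ligated cells. Sox10, the lineage's transcription factor, read 5.21 in ligated and 5.10 in mock cells, with 0.276 in the next cluster. S100b, a calcium-binding protein of glia, read 6.59 and 10.4. Of the 12 markers, 5 were higher in ligated and 7 in mock cells, and 2 were past the size rule, Mbp among them.

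**Figure D1:**
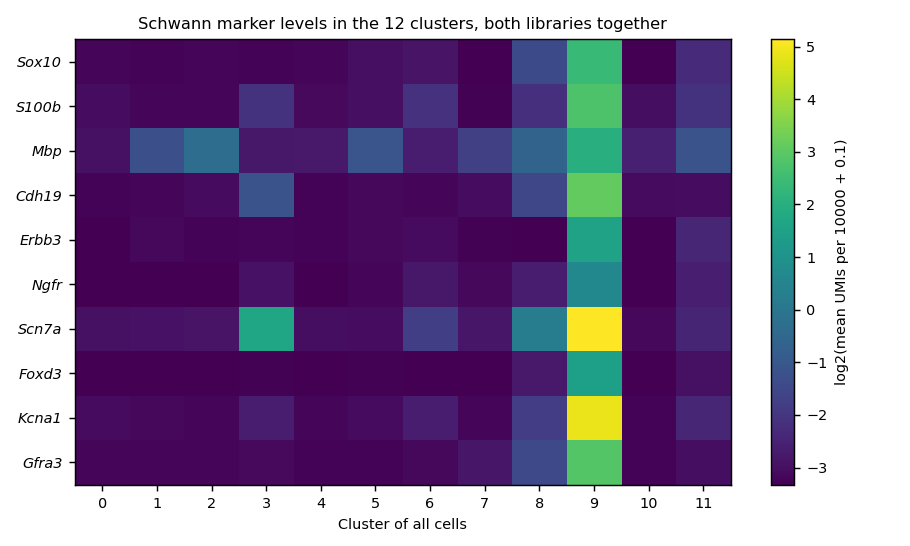
Mean level of 10 of the 12 Schwann markers (rows) in the 12 clusters of all cells (columns), both libraries together, as log2 of UMIs per 10000 plus 0.1 in colour. Cluster 9 is the brightest column in every row, and Scn7a is the marker with the highest level in another cluster, 3.04 in cluster 3.

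Identity was also counted in each library alone. With only the ligated columns 290 genes were past the rule, and with only the mock columns 326. Among the 25 leading genes, Slitrk6, a neuronal-type transmembrane protein, was higher past the size rule in ligated cells (6.73 and 2.17), and Cmtm5 (2.27 and 5.36) and Sfrp5 (2.23 and 4.61) were among those lower. Of the summed level of each of the 25 leading genes over all cells, a median of 89.6% lay in cluster 9 (58.7 to 95.8%). A median of 5.48% (0.480 to 15.5%) lay in the authors' separate subset of Pdgfra, Pdgfrb and Gli1 cells. Across genes the profile was most like cluster 6, a mural-like cluster (Pearson r = 0.860 on log2 values over 20140 genes), and cluster 3, a fibroblast-like one (r = 0.860), a description in which all points share the 2 libraries.

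Markers of other cell types were low in cluster 9 but not equally so in the 2 libraries. The 8 fibroblast markers summed to 15.1 in ligated and 28.2 in mock cells, against 275 in cluster 3. Most of that sum was collagen, with Col3a1 at 6.97 and 14.4, whereas Dcn read 0.707 and 0, and Pdgfra 0.0481 and 0. The 9 endothelial markers summed to 11.3 and 8.18, against 166 in cluster 0. The 8 ductal markers summed to 8.88 in ligated and 0 in mock cells, nearly all of it Klk1, a ductal protease, at 8.48. Macrophage markers summed to 1.90 and 0.0250, T cell markers to 0.748 and 0.0250, and B cell markers to 0 in both. The perineurial list reached its highest sum in cluster 9 (2.33 and 4.19), through Itgb4 and Moxd1, while Cldn1, a tight-junction gene of perineurial cells, read 0 in both libraries. Over other-type markers (75 for ligated, 74 for mock), the median level in cluster 9 was 17.7% of the library mean in ligated cells and 0% in mock cells. A marker below the mock floor of 0.321 can read 0 there, so the mock median of 0% does not show that such RNA was absent. Endothelial markers did read above 0 in mock cells (a sum of 8.18), while ductal markers read 0. Whether RNA of other cells takes part in the differences below was not tested. Subtracting these median shares of the library means, as tried below, lowers ligated values only and cannot decide it.

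The glial transcription factors gave 7 of 29 measured genes past the identity rule. Foxd3, a neural crest factor, read 2.54 in ligated and 4.03 in mock cells. Pou3f1, which acts before the onset of myelination, read 2.45 and 0.633 (5 UMIs in 4 mock cells, Poisson interval 0.205 to 1.48), so the ligated mean lay above the mock interval. Here and below, such intervals are exact for the sum of mock UMIs and are then scaled to the mean. A UMI weighs more in the mean when it lies in a shallow cell, which the scaling ignores, so the limits are approximate. The intervals cover counting error of the mock UMIs only. For genes named because they passed the size rule on the same values, they are no test. Sox2, an inhibitor of myelination, read 0.864 and 0.253 (2 UMIs, interval 0.0307 to 0.915), where the interval takes in the ligated mean. Srebf1, a regulator of fatty acid synthesis, read 2.12 and 0.910 (9 UMIs, 0.416 to 1.73), and Srebf2, its cholesterol counterpart, was lower in ligated cells at 0.672 and 1.62. Egr2, the main driver of myelin genes, read 0.0358 and 0.30, and both its mock UMIs lay in 1 cell. Jun was nearly level at 6.27 and 7.13; 5 other clusters had higher joint means, up to 11.6 in cluster 0.

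Of 25 genes of nonmyelinating Schwann cells measured, 5 of them also Schwann markers, 20 were past the identity rule, of 21 that reached 0.5 in cluster 9. Of 26 compact and noncompact myelin genes measured, 12 were past the identity rule, of 15 that reached 0.5 there. The background was 7.82% of 3656 genes that reached 0.5. Both lists thus marked the cluster, as a description. L1cam, an adhesion molecule that holds unmyelinated axons, read 4.46 in both libraries. Ngfr, the low-affinity neurotrophin receptor, read 1.49 in ligated and 0.961 in mock cells (7 UMIs in 7 mock cells). Gfap, an intermediate filament of these cells, read 0.757 and 0.695. Between libraries 1 of the 22 with a value of 0.5 or more was higher past the size rule and 2 were lower, and the median difference was 0.10. The background was 21.9% of 4401 genes past the rule (13.0% higher, 8.91% lower), with a median of 0.03. Without genes above 0 in 1 library only, it was 20.0% of 4298 genes. Every count of list genes past the size rule below is to be read beside these shares. The 1 was Apod, a lipid carrier, at 62.9 and 27.4, which was also past the rule in 5 of the 9 other clusters with 50 or more cells in each library. The 2 were Ncam1, an adhesion molecule, at 5.09 and 13.1, and the collagen Col28a1 at 0.324 and 1.52.

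Of 17 compact and noncompact myelin genes at 0.5 or more, 0 were higher past the size rule and 5 were lower, and 15 of the 17 had the lower mean in ligated cells. The list's median difference was -0.79. Mbp, which seals the cytoplasmic faces of the sheath, read 3.67 in ligated and 8.65 in mock cells (-1.21). Mal, a myelin sorting protein, read 5.60 and 12.8 (-1.18). Other strong myelin genes stood in the same direction without reaching the rule. Pmp22, a compact myelin protein, read 8.67 and 15.6, and Cnp, an enzyme of noncompact myelin, 5.26 and 9.66, differences of -0.84 and -0.86. Dhh, the Schwann signal that organises the nerve sheath, read 0.311 and 1.53 (11 UMIs in 6 mock cells, interval 0.765 to 2.74). Ncmap, a noncompact myelin gene, read 0.220 and 1.05, and all 7 of its mock UMIs came from 1 cell.

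**Figure D2:**
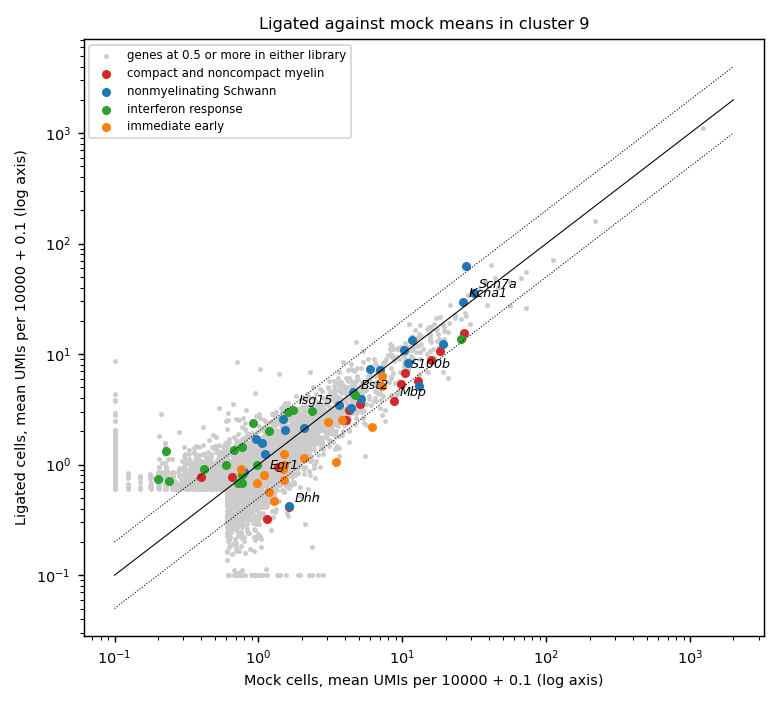
Mean level in the 271 ligated (vertical) against the 17 mock cells (horizontal) of cluster 9, as UMIs per 10000 plus 0.1 on log axes, with 4 gene lists in colour over the genes at 0.5 or more; genes not reported here are left out. The solid line marks equal levels and the dotted lines a difference of 1 on the log2 scale; Mbp lies below the lower line, and Kcna1 and Scn7a lie near equality.

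Because each mock UMI is a visible step in a mean over 17 cells, the UMIs of single mock cells could be solved. Every gene with a mock mean above 0 and up to 2 was written as whole UMIs over the 17 cell totals, and 8479 of 8740 such genes had exactly 1 solution. Genes above that mean, Mbp and Mal among them, were not solved. Mock cells are numbered by UMI total, cell 1 being the deepest.

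Myelin UMIs were unevenly spread over the mock cells. Cell 11, with 3919 UMIs, held 21 UMIs of the 11 solved myelin genes, 53.6 per 10000, whereas the other 16 cells held 0 to 14.4 per 10000. It held all mock UMIs of Ncmap (7), Prx (3), Drp2 (3), Gldn (2), Fa2h (2) and Egr2 (2). Prx and Drp2 encode parts of the complex that ties the myelin sheath to its basal lamina, Gldn organises the node, and Fa2h makes a myelin lipid. Without cell 11 the solved myelin genes at 0.5 or more went from 0 higher and 2 lower of 5 (median -0.53) to 1 higher and 1 lower of 4 (median -0.13). The mock mean of Ncmap was then 0 and its difference 1.68 in place of -1.85, and Dhh kept -1.78. The same cell had 1 UMI of the 9 solved nonmyelinating genes, as did cells 1, 16 and 17, and the range over the 17 cells was 0 to 8. UMIs of Dhh lay in 6 mock cells and those of Ngfr in 7, and cell 13 and cell 3 held both.

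The deepest mock cell differed in another way. Cell 1, with 23497 UMIs, held 132 UMIs of 5 endothelial markers, among them 43 of 43 mock UMIs of Kdr, the vascular growth factor receptor, and 12 of 12 of Cdh5, an endothelial cadherin. It also held 37 UMIs of 4 natural killer markers and 29 of the 31 mock UMIs of the chemokine Ccl5. Its level of the 136 solved identity genes was the lowest of the 17, at 28.1 per 10000, against 37.8 to 161 in the others. Leaving it out moved the count of solved genes past the size rule from 873 to 978, a change smaller than 1.5 times.

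**Figure D3:**
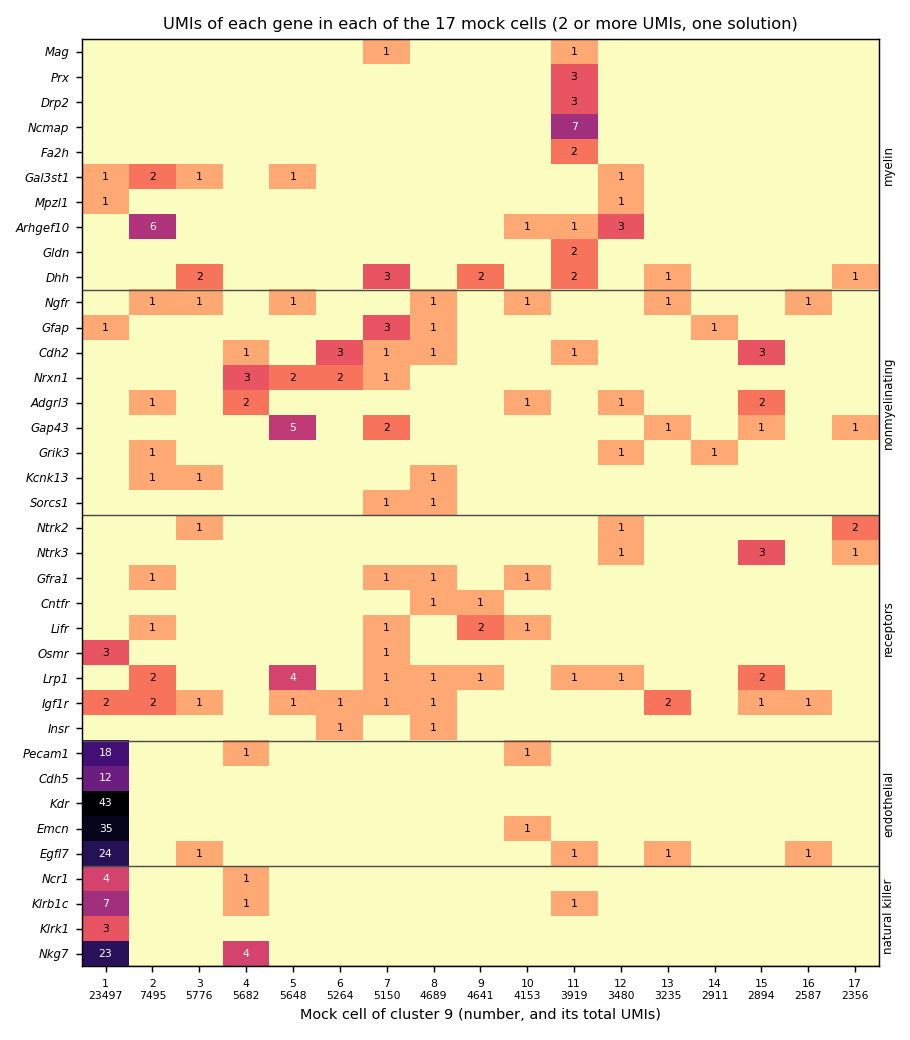
UMIs of each gene (rows, grouped by list) in each of the 17 mock cells (columns, ordered by total UMIs), for genes with 2 or more mock UMIs and 1 solution; numbers are UMIs and empty fields are 0. Cell 1 holds nearly all endothelial and most natural killer UMIs, and cell 11 holds all UMIs of 5 myelin genes.

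Among secreted ligands, cluster 9 was led by glial genes at similar levels in both libraries. Lgi4, a Schwann signal required for myelination, read 9.50 in ligated and 10.2 in mock cells, against 0.305 in the next cluster. Ptn, a neurite-promoting heparin-binding factor, read 7.43 and 10.9, and Pdgfa 6.25 and 5.68. All 3 were past the identity rule and none past the size rule. Sostdc1, a secreted BMP and Wnt antagonist, was lower in ligated cells at 2.38 and 7.47 (-1.61), and Wnt6 read 0.732 and 1.39. Of 16 growth factor ligands at 0.5 or more, 3 were higher past the size rule and 2 lower, and the 2 were Sostdc1 and Dhh.

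The 3 higher ligands were Btc, Ccn1 and Ccn2. Btc, an EGF-family ligand, read 0.822 and 0.204, a ratio of 4.04 with an interval of 1.12 to 33.3 from 2 mock UMIs in 1 cell. The interval does not allow for both UMIs lying in 1 cell. Ccn2, a matricellular growth factor, read 4.28 in ligated cells, and the mock library lists it under its older symbol Ctgf at 0.796 (6 UMIs in 4 cells, 0.292 to 1.73), a difference of 2.29. Ccn1 read 0.696, and its older symbol Cyr61 read 0.275 in mock cells (2 UMIs, 0.0333 to 0.992). Such renamed symbols made up 160 pairs in the tables, and a further group of genes has values in 1 library only.

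Several neurotrophic and repair ligands were near the limit of detection. Gdnf read 0.112 in ligated cells, Artn 0.0621 and Bdnf 0.0908, and all 3 were listed at 0 in mock cells, where the floor is 0.321. A difference between conditions was not detectable for them at this depth. Cntf, the ciliary neurotrophic factor of Schwann cells, read 0.852 in ligated cells but had no value above 0 in any mock cluster, so its symbol gives no comparison, although it counts as the 1 higher gene of 4 in the neurotrophic list. Reln, a secreted guidance protein and the 1 lower gene of that list, was lower in ligated cells at 0.275 and 1.19 (8 UMIs in 5 mock cells, 0.516 to 2.35).

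Receptors for neuregulin and GDNF-family ligands marked the cluster. Of 24 measured genes of the neuregulin, neurotrophin and GDNF group, 7 were past the identity rule, of 10 that reached 0.5 in cluster 9. Ptprz1, a receptor phosphatase that binds Ptn, read 7.36 in ligated and 5.05 in mock cells. Gfra3, the artemin receptor, read 7.26 and 5.87, Gfra2 2.02 and 1.98, and Erbb3 2.81 and 3.19. Those 4 lay within a difference of 0.53 between libraries. Gfra1, the GDNF receptor, read 1.17 and 0.460 (4 UMIs in 4 mock cells, 0.125 to 1.18), so the ligated mean lay just inside the mock interval. Ret, their signalling partner, read 0.00330 and 0.112, the latter from 1 UMI.

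The 2 receptors lower past the size rule were the neurotrophin receptors Ntrk3 and Ntrk2. Ntrk3 read 0.0148 in 271 ligated cells and 1.03 in mock cells, where its 5 UMIs lay in cells 12, 15 and 17 (interval 0.334 to 2.40). Ntrk2 read 0.0730 and 0.770, with 4 UMIs in cells 3, 12 and 17 (0.210 to 1.97). Both ligated means lay below the mock intervals, and cells 12 and 17 carried UMIs of both. None of these cells was cell 1 or cell 11. Cells 12, 15 and 17 were among the shallower mock cells (3480, 2894 and 2356 UMIs), where each UMI weighs more in the mean, so these intervals are approximate.

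Of 82 other glial receptors measured, 30 were at 0.5 or more, with 2 higher and 5 lower past the size rule and a median of 0.03. The share past the rule was near the background of 21.9%. Gpr37l1, a glial orphan receptor, read 6.02 in ligated and 5.85 in mock cells, and Adgrg6, the adhesion receptor that starts myelination, read 1.70 and 1.77. S1pr3, a sphingosine phosphate receptor, read 0.189 and 2.01 (-2.87), the largest difference downward in the list. Fgfr1 read 0.552 and 1.5, and Nrp2, a semaphorin receptor, 0.565 and 1.44. Tnfrsf12a, the TWEAK receptor, read 0.977 in ligated cells and 0 in mock cells, at least 3.04-fold higher against the floor.

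**Figure D4:**
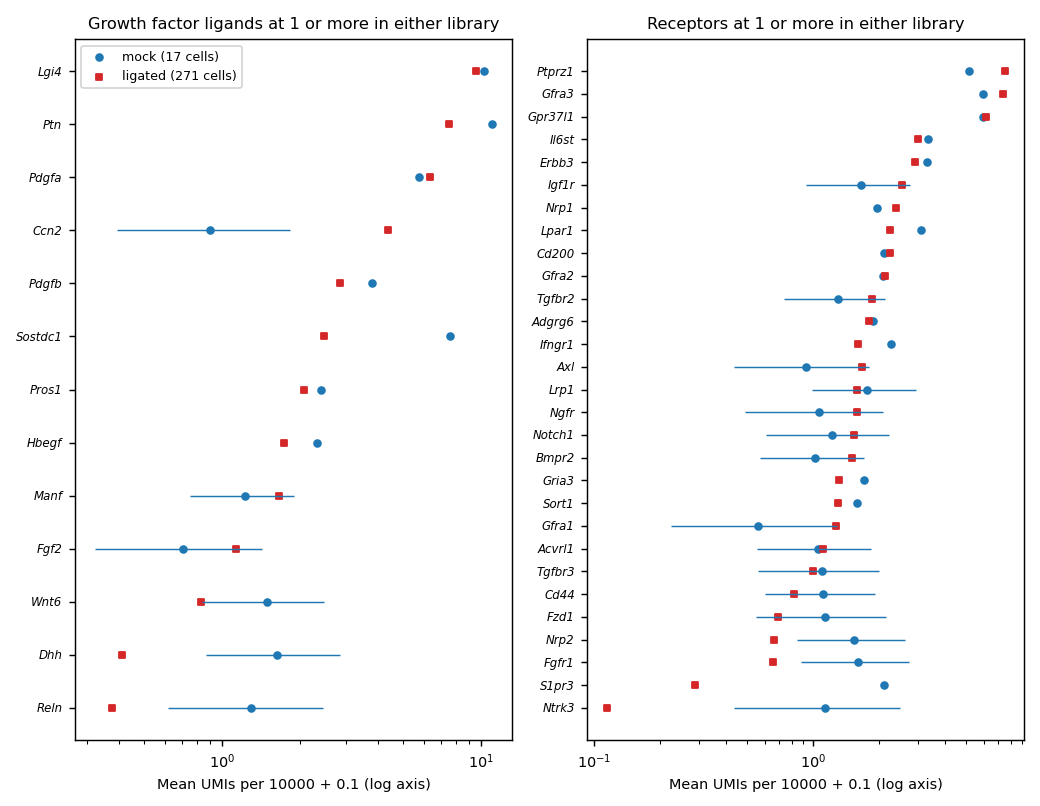
Mean level of growth factor ligands (left) and receptors (right) at 1 or more in either library, in the ligated (squares) and mock cells (circles) of cluster 9, as UMIs per 10000 plus 0.1 on a log axis. Bars are Poisson intervals of the mock UMI sums, scaled to the mean, where these were solved. They are approximate and cover counting error only. The ligated mean of Ntrk3 lies below its bar, and that of Ccn2 above its bar.

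Cytokines and chemokines gave 0 of 35 genes past the identity rule, of 5 that reached 0.5 in cluster 9 and could pass it. Of 5 at 0.5 or more, 3 were higher past the size rule in ligated cells. Cxcl10, an interferon-induced chemokine, read 1.93 and 0, at least 6.02-fold higher against the floor. Its ligated mean in cluster 9 exceeded the ligated library mean of 0.577. Ccl5 read 7.24 and 0.934, and Cxcl14 0.753 and 0, but both stood far below their library means in ligated cells (39.3 for Ccl5) and were past the rule in 7 and 6 of the 9 other clusters. Subtracting 17.7% of the ligated library mean, the level at which other cells' markers stood, turned Ccl5 to -1.48 and left Cxcl10 at 4.27. The mock share was 0%, so this step lowers ligated values only and cannot show where the RNA came from.

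Genes of axon adhesion and guidance gave 19 of 63 past the identity rule, of 24 that reached 0.5 in cluster 9. Chl1, an L1-family adhesion molecule, read 10.9 in ligated and 10.2 in mock cells, and Cadm2, which binds axonal partners, 3.15 and 4.33. Of 26 at 0.5 or more, 5 were higher past the size rule and 3 lower, with a median of 0.09. The semaphorin Sema4f read 1.26 and 0.230 (2 mock UMIs, interval 0.0278 to 0.829). Sema3d read 1.2 and 0.411 (4 mock UMIs, 0.112 to 1.05). In both the ligated mean lay above the mock interval. Flrt1, Sema3c and Spon1 were the other 3, with Flrt1 at 1.71 and 0.801 (0.322 to 1.65). Without mock cell 11 Flrt1 and Spon1 did not pass the rule (0.93 each), nor did Spon1 without cell 1 (0.93), nor either after centring on the median of all genes (0.98 and 0.97). The solved genes of the list had 3 higher and 1 lower without cell 11, in place of 5 and 2.

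The basal lamina and matrix list gave 14 of 66 genes past the identity rule, of 50 that reached 0.5 in cluster 9. Col18a1, a basement membrane collagen, read 8.03 in ligated and 4.29 in mock cells, and Col16a1 6.74 and 3.54, differences of 0.89 and 0.91 that did not reach the rule. Of 54 genes at 0.5 or more, 5 were higher and 8 lower, with a median of -0.18, a share past the rule near the background of 21.9%. The integrin subunit Itga1, part of a collagen and laminin receptor, read 12.8 and 4.63 (1.44), and its relative Itga2 read 1.5 and 0.521 (4 mock UMIs, 0.142 to 1.33). Itgb4, the laminin receptor subunit of myelinating and perineurial cells, was lower at 1.30 and 3.33. Sdc4, a heparan sulfate proteoglycan, read 3.04 and 7.53, and Col14a1 2.69 and 7.08.

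Of 20 lipid and cholesterol genes at 0.5 or more, 3 were higher and 7 lower, with a median of -0.58. The lower ones included enzymes of cholesterol synthesis: Idi1 read 0.244 in ligated and 1.52 in mock cells, Hmgcs1 0.244 and 0.848, and Cyp51 0.248 and 0.673. The mock UMIs of Hmgcs1 and Cyp51 numbered 7 and 5. Without mock cell 11, the solved genes of the list had 3 lower in place of 5. The fatty acid enzymes Scd1 and Elovl6 and the transporter Abca8a were also lower. Fads2, a fatty acid desaturase, was higher at 1.71 and 0.104, a ratio of 16.5 with an interval of 2.95 to 650 from 1 mock UMI.

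Of 16 immediate early genes at 0.5 or more, 0 were higher and 5 lower, with a median of -0.59. Fos read 2.11 in ligated and 6.08 in mock cells, and Atf3, a factor induced by stress and nerve injury, 0.949 and 3.37. The other 3, Klf2, Klf4 and Zfp36, did not pass the rule without mock cell 11, with differences of -0.60, -0.72 and -0.59, and Klf2 did not pass it without cell 1 either (-0.80). Of 19 interferon response genes, 7 were higher and 0 lower, with a median of 0.85. Subtracting the share of the library mean left 3 higher of 16, with Ifit1 at 0.93, Rsad2 at 0.76 and Psmb9 at 0.48. A minimum of 2 left 1 higher of 6, and a pseudocount of 1 left 0 of 19. The summed level of the list was 42.6 in ligated and 43.6 in mock cells. Gbp2, an interferon-induced GTPase, read 2.28 and 0.819 (8 mock UMIs, 0.353 to 1.61). Ifi27l2a, the most abundant of the list, stood the other way at 13.7 and 25.6. Without mock cell 11 the solved genes of the list had 6 higher in place of 7.

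The repair list gave 5 higher and 2 lower of 11 genes at 0.5 or more, with a median of 0.80. The 5 were Sox2, Btc, Runx2, Tnc and Gfra1, each resting on 0 to 4 mock UMIs. The 2 were Ncam1 and Atf3. With a minimum of 2 in place of 0.5 the list kept 4 genes, 0 of them higher, and its median was -0.76. Gap43, a growth-associated protein of nonmyelinating and repair cells, read 2.49 and 1.38, and Tnc, a matrix protein of injured nerve, 0.524 and 0.190. Antigen presentation genes gave 2 higher and 0 lower of 11, and the 2 were Cd74 and H2-Aa, whose cluster 9 levels of 1.16 and 0.570 in ligated cells compared with 176 and 54.7 in cluster 5. Both turned negative when the share of the library mean was subtracted, a step that lowers ligated values only.

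**Figure D5:**
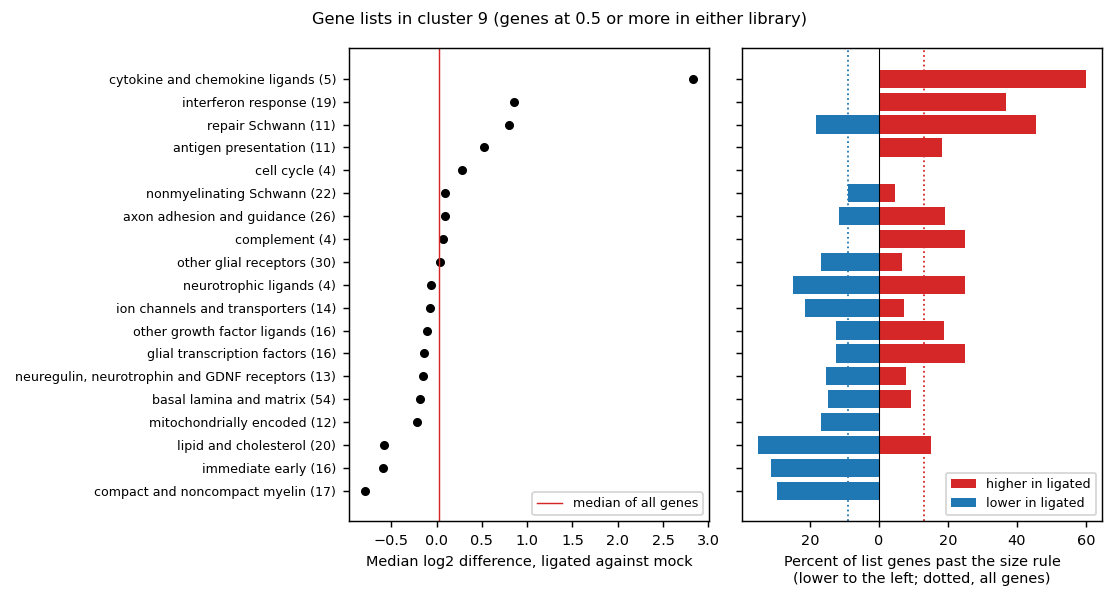
Gene lists in cluster 9, each with its number of genes at 0.5 or more in brackets: left, the median log2 difference of ligated against mock cells, with the median of all genes as a line; right, the percent of list genes past the size rule, higher to the right and lower to the left, with the share of all genes dotted. The myelin list has the lowest median and the cytokine list, of 5 genes, the highest.

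The ion channel and transporter list had 7 of 32 genes past the identity rule, of 10 that reached 0.5 in cluster 9. Its potassium channels were level, with Kcna2 at 13.2 in ligated and 11.6 in mock cells and Kcna6 at 2.93 and 2.83. Of 14 channel and transporter genes at 0.5 or more, 1 was higher (Aqp1, at 0 in mock cells) and 3 lower (Cacna2d1, Atp1b2 and Slc12a2). Without mock cell 11 Slc12a2 did not pass the rule (-0.66). Complement C4b, at 15.1 and 15.3, was among the 25 leading identity genes and nearly level. Of 4 cell cycle genes at 0.5 or more, 0 were past the rule, and the 6 cycling markers summed to 0.276 in ligated and 0 in mock cells. Mki67, a marker of dividing cells, read 0.256 and 0, and Top2a 0 in both, all below the mock floor of 0.321. Of 12 mitochondrially encoded genes, 0 were higher and 2 lower, and mt-Atp8 was past the rule in 7 other clusters too.

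Over all 4401 genes at 0.5 or more, 571 were higher past the size rule and 392 lower, 59.3% of them higher. Without genes above 0 in 1 library only, 504 were higher and 356 lower. After subtracting the share of the library mean, 349 were higher and 672 lower, 34.2% higher. Since that share was 17.7% for ligated and 0% for mock cells, the step lowers ligated values only, and a turn toward lower calls follows from its construction. Among genes at 1 or more in ligated cells and above 0 in some cluster of each library, the 10 largest differences upward were those of Klk1, Nme2, Mgp, Cxcl10, Rnasek, Tomm6, Atp6v0c, Rpl13a, Fads2 and Ccl5. Of these, 8 were past the rule in 7 to 9 of the 9 other clusters and Cxcl10 in 3, while Fads2 stood below 0.5 in every other cluster. Over all ligated cells Rnasek averaged 2.43, over all mock cells 0.00116, and Nme2 averaged 5.87 and 0.166, so for those genes the library means differed as well. The 10 largest differences downward, at 1 or more in mock cells, included those of Ogn, Ntrk3, S1pr3, Cpe, Tiparp, Idi1, mt-Atp8 and Tulp3. Ogn, a matrix proteoglycan, read 0.0810 in ligated and 2.25 in mock cells, and 12 of the 13 mock UMIs of Tulp3 lay in cell 7.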

How the data were processed

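Both conditions were measured with 1 droplet single-cell RNA library each. The submitters' processing notes name Cell Ranger 6.0.1, Seurat and the mouse build mm10, without roles; filters, clustering and doublet treatment are not given in the sources used here. The authors deposited cluster means, on a linear scale with each column summing to 10000, read from the values as mean UMIs per 10000 UMIs of a cell; the count tables per cell were not used here. Cell numbers and mock UMI totals were recovered from the steps of the deposited means and the weights that join split to unsplit columns, and all 8740 genes with a mock mean of up to 2 had a solution (261 had several and were set aside). A control took the 5351 genes with a mock mean of up to 0.4. With every total raised by 1, 0 of these were solved, against 5351 with the totals used. No such control was made for means from 0.4 to 2, where more UMI combinations are possible.

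Values were compared with a pseudocount of 0.1, a minimum of 0.5 and a log2 difference of 1 in Python 3.11.15 (numpy 2.4.6, pandas 2.3.3, scipy 1.17.1). The steps were also run on simulated cells, none of them as deep as mock cell 1, and the outcome of that run is not given here. Clopper-Pearson intervals are exact at 95%. Poisson intervals at 95% are exact for the sum of UMIs and scaled to the mean of the cells' shares, for which they are approximate. Both kinds cover counting error only. Cluster members, markers and gene lists (654 of 673 genes in the tables) were chosen with earlier results of these data known. Named genes were those of the lists, the 25 largest identity differences at 1 or more, and the 10 largest differences each way at 1 or more. Other thresholds, pseudocounts, centring, subtraction of a share of the library mean and, chosen after seeing the data, omission of mock cells 1 and 11 were tried. Dates in place of 21 symbols were restored, and 3150 symbols were above 0 in the ligated library only and 684 in the mock library only. Results for some genes are not reported here.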

Additional observations from a re-analysis of the deposited data

Results flagged for a closer look

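For a pair of genes the difference between conditions ran one way in cluster 9 and the other way in the fibroblast-like cluster 3. Fbln2, a basement membrane fibulin, differed by 1.76 in cluster 9 and by -1.53 in cluster 3, where it read 2.34 in ligated and 6.92 in mock cells. Of its 15 mock UMIs in cluster 9, 11 lay in mock cell 1. Sema3c, a secreted semaphorin, differed by 1.27 in cluster 9 and by -1.75 in cluster 3, where it read 0.256 and 1.09. Of its 6 mock UMIs in cluster 9, 5 lay in mock cell 1. With 1 library per condition, the difference between the clusters was not tested.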

How the results depend on the processing

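No paired analysis was possible because each condition has 1 library and the labels give no replicate numbers. Of the identity count of 286, a pseudocount of 1 left 131, a minimum of 2 left 124 and a log2 difference of 2 left 160. Of the 963 genes past the size rule, a pseudocount of 1 gave 92, a minimum of 2 gave 120, no minimum gave 3225 and a log2 difference of 2 gave 233. Over the fixed lists 80 genes were past the rule, with 24 at a minimum of 2 and 21 at a pseudocount of 1. Genes with solved mock UMIs past the rule numbered 873, and 978, 880 and 984 without mock cell 1, cell 11 and both. The repair list's median turned to -0.76 at a minimum of 2. Subtraction of a share of the library mean, which lowers ligated values only, turned the cytokine list's median to -0.78, Ccl5 to -1.48, Cd74 to -1.83 and H2-Aa to -1.59. Leaving out mock cell 11, chosen after seeing the data, turned Ncmap to 1.68 and Plxnb1 to 0.066. The cause was not tested beyond what each alternative removes. The 17 mock cells limit every comparison.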
